A study of Sus scrofa with 43 samples.

Results

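Fatty acid binding proteins were followed in the jejunum of young piglets through the transcripts of FABP1, FABP2, FABP3, FABP4, FABP5 and FABP6. The 6 genes were chosen by name and their spots were found by the porcine RefSeq transcript printed for each spot, NM_001004046, NM_001031780, NM_001099931, NM_001002817, NM_001039746 and NM_214215 in that order. They are 6 of the 35884 transcripts on the array, and 5 of them (all but FABP4) are among the 12771 that were bright enough to be tested. Jejunal scrapings of 43 piglets were hybridized to 1 one-color Agilent porcine array each. The control group was born from Hypor sows on standard feed, and the amoxicillin group from Hypor sows on the same feed that received amoxicillin (Paracillin SP, a beta-lactam antibiotic) at 15 mg/kg in the last week before farrowing. No piglet was given the antibiotic itself, and at each age 1 apparently healthy male per sow was sampled. Sampling took place at day 1, at day 7, on the day of weaning and, after it, at 4 d and at 28 d postweaning, and for these ages in turn the control group held 6, 6, 3, 5 and 3 arrays and the amoxicillin group 4 each.

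Fatty acid binding proteins are small proteins of the cytosol whose barrel-shaped fold holds a lipid molecule and carries it between membranes and enzymes. In the small intestine, FABP1 (liver type) and FABP2 (intestinal type) are abundant in the absorptive enterocytes of the villus, which take up the fat of milk and feed. FABP6 (gastrotropin) binds bile acids and belongs to the enterocytes of the ileum, the last stretch of the small intestine, where bile acids are recovered. FABP3 (heart type), FABP4 (adipocyte type) and FABP5 (epidermal type) are best known from muscle, from fat cells and macrophages, and from skin and endothelium.

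A level is given below as the log2 intensity of a gene after normalization over the 43 arrays, averaged over its probes, and levels of different genes are not set against each other because probes differ in brightness. Scrapings mix cell types, so that fewer cells of a type and less RNA per cell cannot be told apart. Each of the 6 slides carried only 1 treatment (slides 1 to 3 control, slides 4 to 6 amoxicillin), and slide and treatment cannot be told apart. Between 15937 and 29827 gene spots per control array (median 28182) and between 16150 and 26290 per amoxicillin array (median 21316.5) were well above background. The small number of arrays in a group limits the precision of every difference. A difference was called where limma gave a Benjamini-Hochberg adjusted p under 0.05 over all genes tested together with a log2 fold change beyond 1.5.

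FABP1 stood at or close to the scanner's ceiling at every age, as did FABP2 in the control group. FABP5 was high in the first week of life and lower from weaning on. FABP6 differed widely between piglets of the same group, from 6.59 to 14.66 among the control piglets of day 1, none of them saturated. FABP1 had all 3 probes saturated on 31 of 43 arrays and FABP2 both probes on 22, so that most of their values are lower bounds. FABP6 was saturated on 6 arrays, and FABP3, FABP4 and FABP5 on none. The probes of a gene ran together over the arrays for FABP3 (pairwise r of 0.93 to 0.97), FABP5 (0.85 to 0.90) and FABP6 (0.995), whereas the 7 probes of FABP4 ranged from 0.08 to 0.86. The r was 0.85 to 0.96 for FABP1 and 0.77 for FABP2, with 114 of 129 and 59 of 86 spots saturated. Every probe of these genes had its lowest raw intensity in amoxicillin piglet 8 at weaning, so their r says little about the other arrays.

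**Figure D1:**
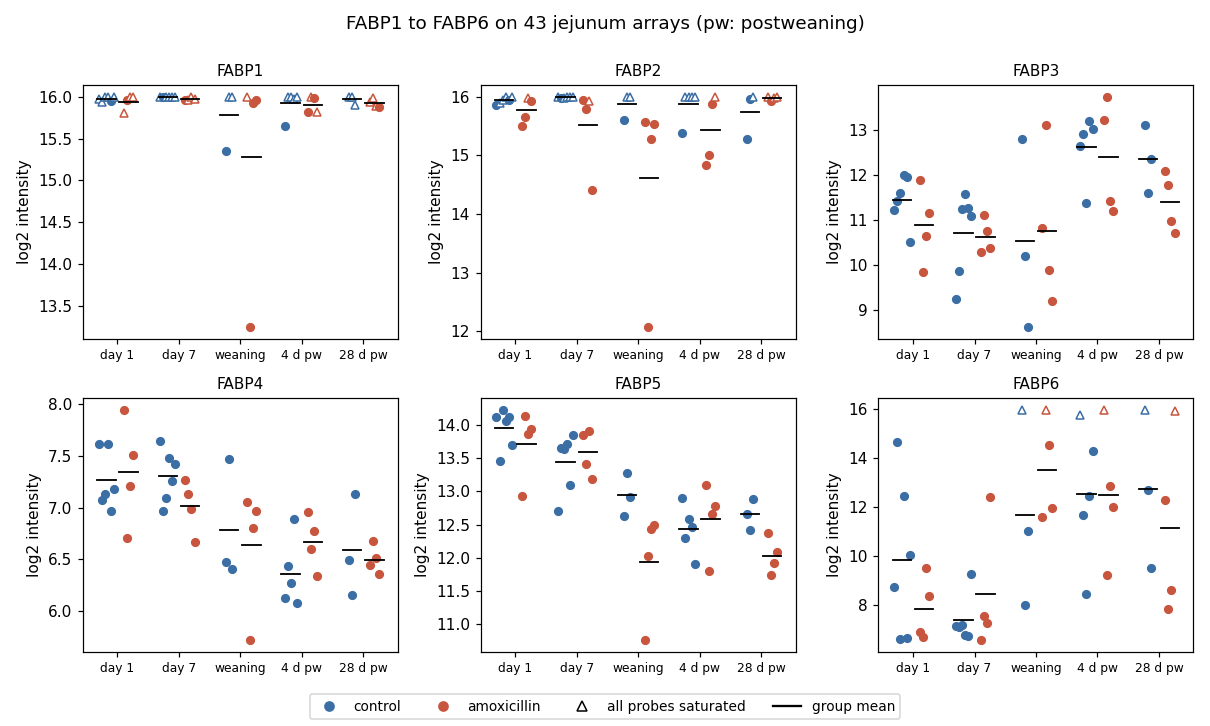
Log2 intensity of each fatty acid binding protein on each of the 43 arrays by age (pw, postweaning), with control piglets in blue, amoxicillin piglets in red, the group mean as a bar and open triangles where all probes of the gene were saturated. FABP1 and FABP2 sit near 16 apart from single piglets, FABP5 is lower at weaning than at day 7 in the amoxicillin group, and FABP6 spans 6.55 to 15.99.

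Over the 5 ages of the control group, 3 of the 5 genes tested differed in limma's moderated F-test (FABP3, FABP5 and FABP6), where 30.5% of all genes did. Over the ages of the amoxicillin group, 2 of 5 differed (FABP5 and FABP6), against 47% of all genes. The difference between the groups changed with age for 0 of the 5 at an adjusted p under 0.05 and for 0 at an unadjusted p under 0.05, against 6.18% of all genes called. Of the single steps between successive ages, only FABP5 from day 7 to weaning in the amoxicillin group was called, 1 of 5 genes where 3.62% of all genes were called. In the other 3 steps of the amoxicillin group 0 of 5 were called (all genes 0.572, 2.04 and 3.81% in order of age), with 0, 3 and 0 at an unadjusted p under 0.05 in limma. In the 4 steps of the control group 0 of 5 were called (all genes 0.713, 0.0861, 1.25 and 0%), with 0, 1, 1 and 0 at an unadjusted p under 0.05, and the step to 28 d postweaning, in which no gene at all was called, had 789 genes at an unadjusted p under 0.05.

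FABP1, the liver-type protein that enterocytes hold in large amounts, had group means between 15.28 and 16.00 (log2 level). In the control group its range over all 23 piglets was 15.36 to 16.00, and the lowest control values were those of piglet 7 at weaning (15.36) and piglet 10 at 4 d postweaning (15.65). In the amoxicillin group the values at weaning were 16.00, 13.25, 15.92 and 15.96, and piglet 8 with 13.25 lay apart from all other 42 arrays. The array of this piglet was unlike its group over all genes too. Its r with the other arrays of the group was 0.787 to 0.797, beside 0.876 to 0.929 among those others. The order of the group means ran from control day 7 down to amoxicillin weaning, and apart from a gap of 0.03 at the ceiling no neighbours in that order differed by more than the larger of their SDs. The F-test over the ages gave an adjusted p of 0.98 in the control and 0.197 in the amoxicillin group (limma), on values that the ceiling holds together.

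FABP2, the intestinal-type protein of the same cells, ranged from 15.28 to 16.00 over the control piglets. Its control means were 15.94, 15.99, 15.87, 15.88 and 15.75 from day 1 to 28 d postweaning, with SDs of 0.0570, 0.00973, 0.223, 0.275 and 0.403. The amoxicillin piglets reached 15.50, 15.66, 15.98 and 15.93 at day 1 and 15.95, 15.80, 15.92 and 14.41 at day 7, beside 15.98 to 16.00 in the 6 control piglets. Apart from piglet 24 these day 7 values lay at or close to the ceiling and give no order between the groups. At weaning the amoxicillin piglets had 15.57, 12.07, 15.29 and 15.53, beside 15.61, 16.00 and 16.00 in the 3 control piglets. Of the amoxicillin spots 1 of 8 was saturated and of the control spots 5 of 6, so that the ceiling held mainly the control values. The 15.57 of amoxicillin piglet 7 rests on 1 probe, as its other spot (13.985) carried an outlier flag. At 4 d postweaning the amoxicillin values were 14.84, 15.00, 15.88 and 16.00, and at 28 d postweaning all 4 lay within 15.92 to 16.00. Slide 5 held amoxicillin piglet 24 of day 7, all 4 of weaning and piglets 10, 32 and 33 of 4 d postweaning. The other amoxicillin piglets lay on slides 4 and 6 and had 15.50 to 16.00. On slide 5 the weaning piglets differed from piglet 24 by 0.203, beside -0.904 from day 7 to weaning over all amoxicillin arrays. Age and slide cannot be told apart for these low values. No neighbours in the order of the 10 group means, from control day 7 (15.99) to amoxicillin weaning (14.61), differed by more than the larger SD. The F-test over the ages gave an adjusted p of 0.991 for the control and 0.0583 for the amoxicillin piglets (limma). The latter was 0.0147 with the 1 FABP2 spot that carried an outlier flag (amoxicillin piglet 7 at weaning) kept, and 0.0188 to 0.049 without amoxicillin piglet 7, 25 or 29 at weaning, piglet 24 at day 7 or piglet 34 at 4 d postweaning.

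FABP6, the ileal bile acid binding protein, was near the dim end of the scale in most piglets of the first week and reached the scanner's ceiling in single piglets from weaning on. Over all arrays it spanned 6.55 to 15.99, with the top saturated and the bottom, amoxicillin piglet 4 at day 7, well above background in 1 of 2 probes, and the median was 9.49. Of the 20 arrays at day 1 and day 7, 4 lay above this median, and of the 23 arrays from weaning on, 17 did. These shares describe the same values as the F-tests over the ages, which gave an adjusted p of 0.0392 in the control and 0.0295 in the amoxicillin group (limma). With the slide as a random block the adjusted p was 0.103 and 0.301, so both calls were lost. The control call was also lost without any 1 of 10 control arrays (piglets 4, 19, 20, 21 and 22 at day 7, 10, 31 and 32 at 4 d and 13 and 34 at 28 d postweaning) and the amoxicillin call without any 1 of 5 (piglets 2 and 17 at day 1, 4 at day 7, 8 and 25 at weaning), with adjusted p up to 0.0735 and 0.0636.

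At day 1 the control piglets had FABP6 levels from 6.59 to 14.66 with a median of 9.37, and the amoxicillin piglets 6.88, 6.66, 9.48 and 8.35. At day 7 the control piglets ranged from 6.73 to 9.26 (median 7.12) and the amoxicillin piglets had 6.55, 7.54, 7.25 and 12.41. At weaning the control piglets had 15.98, 8.00 and 11.01 and the amoxicillin piglets 11.61, 15.99, 14.55 and 11.96. In each of these age groups the values of the control and amoxicillin piglets overlapped, and amoxicillin piglet 24 at day 7 was the only one of the 10 piglets of that age that reached the levels of the amoxicillin piglets at weaning. It was also the only amoxicillin piglet of day 7 on slide 5, the slide of all 4 amoxicillin piglets of weaning. Slide and piglet cannot be told apart for its value.

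At 4 d postweaning the control levels of FABP6 were 15.77, 11.67, 8.43, 12.44 and 14.28 and the amoxicillin levels 15.98, 9.21, 12.85 and 12.00. At 28 d postweaning the control levels were 15.98, 12.69 and 9.49 and the amoxicillin levels 12.28, 7.81, 8.59 and 15.94. Each of the 6 groups from weaning on thus held exactly 1 piglet in which both FABP6 probes were saturated. These were control piglets 7, 10 and 13 and amoxicillin piglets 8, 10 and 40, so that all but piglet 40 carry low piglet numbers. The low-numbered amoxicillin piglet 7 at weaning was not saturated (11.61). The study divided its sows over batches, which the sample labels do not give, and the part of batch in the FABP6 values was not tested. The order of the group means ran from amoxicillin weaning (13.52) to control day 7 (7.35), and no neighbours in it differed by more than the larger SD.

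From day 7 to weaning the FABP6 mean of the control group was higher by 4.31 (limma SE 1.82, adjusted p = 0.407) and that of the amoxicillin group by 5.09 (SE 1.82, 95% interval 1.39 to 8.78, adjusted p = 0.0632). On slide 2, which held 4 control piglets of day 7 and the 3 of weaning, the difference was 4.19. On slide 5, with 1 amoxicillin piglet of day 7 (piglet 24, the highest of its group) and 4 of weaning, it was 1.12. The step in the amoxicillin group was 6.41 (adjusted p = 0.0221) without amoxicillin piglet 24 at day 7, and it also passed the threshold, at an unchanged 5.09, without control piglet 7 at weaning (adjusted p = 0.0482) or amoxicillin piglet 40 at 28 d postweaning.

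FABP5, the epidermal-type protein, was the only fatty acid binding protein whose course over age was called in both groups under every array left out (43 of 43). In the control group its means were 13.95 ± 0.300 (SD, n = 6) at day 1, 13.44 ± 0.444 (n = 6) at day 7, 12.94 ± 0.331 (n = 3) at weaning, 12.43 ± 0.364 (n = 5) at 4 d and 12.65 ± 0.235 (n = 3) at 28 d postweaning. In the amoxicillin group they were 13.72 ± 0.533, 13.59 ± 0.347, 11.93 ± 0.806, 12.58 ± 0.556 and 12.03 ± 0.273 (n = 4 each). The F-test gave an adjusted p of 0.000248 in the control and 1.16e-05 in the amoxicillin group (limma). With the slide as a fixed block these were 0.541 and 0.238, in a fit that compares ages only where they share a slide.

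The amoxicillin piglets had FABP5 levels of 13.84, 13.42, 13.91 and 13.18 at day 7 and of 10.76, 12.03, 12.43 and 12.50 at weaning, with no overlap. FABP5 fell by 1.66 on the log2 scale over this step (SE 0.317, 95% interval -2.30 to -1.01, adjusted p = 0.000846, limma), a 3.15-fold lower level. Without amoxicillin piglet 7 at weaning, the lowest of all arrays, the step was -1.27 with an adjusted p of 0.00642, short of the fold threshold. On slide 5, where the 4 weaning piglets lay beside 1 piglet of day 7, the difference was -1.25, and the fixed slide block gave that value an adjusted p of 0.228.

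In the control group FABP5 ranged from 12.70 to 13.84 (median 13.64) at day 7 and was 12.62, 13.28 and 12.91 at weaning, so that the ranges overlapped. The control step was -0.50 (SE 0.317, adjusted p = 0.647, limma) and -0.64 on slide 2 alone. At 4 d postweaning the control piglets had 12.90, 12.30, 12.58, 12.46 and 11.91 and the amoxicillin piglets 13.10, 11.80, 12.65 and 12.78. At 28 d postweaning the control piglets had 12.66, 12.42 and 12.89 and the amoxicillin piglets 12.38, 11.74, 11.92 and 12.09. All 20 piglets of the first week except control piglet 4 at day 7 (12.70) and amoxicillin piglet 2 at day 1 (12.94) were above 13.00, and of the 23 later piglets only control piglet 24 at weaning (13.28) and amoxicillin piglet 10 at 4 d postweaning (13.10) were. In the order of the 10 group means, 2 of 9 gaps between neighbours exceeded the larger SD, those from control day 7 to control weaning (0.50) and from control 4 d to amoxicillin 28 d postweaning (0.40).

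Markers of endothelium, a cell type known for FABP5, and of muscle were set beside it. Of the 5 endothelial markers tested (of 6 on the array), 4 were called in the F-test over ages in each group (all genes 30.5 and 47%), with 1 lower (all genes called 3.62%) at weaning than at day 7 in the amoxicillin group (CDH5, the cadherin of endothelial junctions, -1.91, adjusted p = 0.00187 in limma) and a list median of -1.21 beside 0.015 for all genes. The mean log2 level of the 6 markers lay between 8.48 and 9.61 on the control arrays of the first week and between 7.75 and 9.03 on those from weaning on. On the amoxicillin arrays it lay between 8.41 and 9.32 in the first week and between 7.27 and 9.08 afterwards. PECAM1, VWF and ENG were above background on all 43 arrays CDH5 on 41, CLDN5 on 39 and AQP1 on 33, and the part of endothelial cells in the FABP5 values was not tested. Of 3 muscle markers tested (6 on the array), 3 were called over the ages in the control and 0 in the amoxicillin group, with a median of -0.73 (0 called) from day 7 to weaning in the latter. The mean log2 level of the 6 muscle markers lay between 8.06 and 9.29 in the first week and between 7.37 and 9.18 later, and after group means were subtracted its r with FABP5 was 0.615, beside 0.59 for the endothelial markers, a description over 43 arrays. The part of muscle in the FABP5 values was not tested.

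FABP3, the heart-type protein, had its highest group means at 4 d postweaning in both groups. The control means were 11.45 ± 0.546 (SD, n = 6) at day 1, 10.71 ± 0.928 (n = 6) at day 7, 10.54 ± 2.11 (n = 3) at weaning, 12.62 ± 0.731 (n = 5) at 4 d and 12.35 ± 0.754 (n = 3) at 28 d postweaning. The amoxicillin means were 10.88 ± 0.857, 10.63 ± 0.379, 10.75 ± 1.71, 12.39 ± 1.27 and 11.39 ± 0.648 (n = 4 each). The F-test over ages gave an adjusted p of 0.0372 in the control and 0.151 in the amoxicillin group (limma). The control call was lost with the slide as a random block (0.148), with percentile-scaled processed signals (0.0524), with dim genes kept (0.065), and without any 1 of 10 control arrays (day 7 piglets 4 and 19, weaned piglets 24 and 25, piglets 10, 29, 31 and 32 of 4 d and 13 and 37 of 28 d postweaning), with adjusted p up to 0.0804.

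At weaning the control piglets had FABP3 levels of 12.80, 10.20 and 8.62, and at 4 d postweaning 12.64, 12.90, 11.37, 13.20 and 13.01. The amoxicillin piglets had 10.81, 13.11, 9.89 and 9.19 at weaning and 13.22, 13.73, 11.42 and 11.20 at 4 d postweaning. In both groups 1 weaned piglet lay among the values of 4 d later, control piglet 7 and amoxicillin piglet 8. From weaning to 4 d postweaning the control mean was higher by 2.09 (SE 0.722, adjusted p = 0.0968, limma) and the amoxicillin mean by 1.64 (SE 0.699, adjusted p = 0.153). Without control piglet 7 at weaning the control step was 3.21 (adjusted p = 0.016), and without amoxicillin piglet 8 at weaning the amoxicillin step was 2.43 (adjusted p = 0.0243). In the order of the group means, from control 4 d postweaning (12.62) to control weaning (10.54), 1 of 9 gaps exceeded the larger SD, that from control 28 d postweaning to control day 1 (0.90).

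Macrophage markers were set beside FABP3. After group means were subtracted, their r with FABP3 (0.539 over 43 arrays, a description) was the highest of the 12 gene lists. The ileal list, of 1 gene, had 0.406, and all others were below 0, among them muscle (-0.408) and enterocyte (-0.391). The single genes most like FABP3 (NME1, CCNB1 and AURKB, given below) belong to none of the 12 lists. The mean log2 level of the 4 macrophage markers on the array reached 8.91 to 10.66 at 4 d postweaning in the control group and 9.13 to 10.74 in the amoxicillin group, beside 8.26 to 9.48 and 8.50 to 9.32 at weaning and 8.72 to 9.68 and 8.77 to 9.36 at day 1. Of the 3 markers tested, 0 and 3 were called in the F-tests over ages of the control and amoxicillin group (all genes 30.5 and 47%). From weaning to 4 d postweaning the amoxicillin group showed 1 of them higher, CD163, the haemoglobin scavenger receptor (2.58, adjusted p = 0.00847 in limma, all genes called 2.04%), and none of the 6 muscle markers on the array (3 tested) was called in any single step. The part of macrophages in the FABP3 values was not tested.

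FABP4, the adipocyte-type protein, was dim on every array, with levels between 5.72 and 7.94, and did not exceed the threshold of 7.68 on all arrays of any group. Of its 7 probes, 4 were well above background on at least 35 arrays, and over these 4, which ran together with r of 0.74 to 0.86, the control means were 8.28, 8.29, 7.67, 7.26 and 7.61 from day 1 to 28 d postweaning. The amoxicillin means over these probes were 8.32, 8.01, 7.61, 7.69 and 7.32. The F-test over ages of the control group gave an adjusted p of 0.0278 on these probes and 0.0146 on all 7 without the filter (limma), and that of the amoxicillin group 0.127 and 0.0818. No step and no treatment difference of FABP4 was called in these fits. Among the adipocyte markers, ADIPOQ (adiponectin) was well above background on 9 arrays and PLIN1 (perilipin, the coat of the fat droplet) on 5, while LPL was so on 38. The mean log2 level of the 8 adipocyte markers on the array lay between 7.19 and 8.46, and the part of fat cells in the FABP4 values was not tested.

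Maternal amoxicillin was compared with the control group at each age to ask whether the treatment of the sow had altered the offspring's jejunum. At day 1, 0 of the 5 genes were called in limma (all genes 0.211%) and 0 at an unadjusted p under 0.05. At day 7, 0 were called, as of all genes (0%), with 0 of the 5 and 887 of all genes at an unadjusted p under 0.05. At weaning 0 were called against 3.41% of all genes, with FABP2 and FABP5, 2 of the 5, at an unadjusted p under 0.05. At 4 d and 28 d postweaning 0 were called against 1.54 and 2.13% of all genes, with 0 at an unadjusted p under 0.05. The treatment differences and the steps that end or start at the same age share arrays.

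At weaning, FABP2 was lower in the amoxicillin group by a log2 difference of -1.255 (SE 0.454, 95% interval -2.17 to -0.336, adjusted p = 0.0793, limma). Amoxicillin piglet 8 decided its size, since without this piglet the difference was -0.41 (adjusted p = 0.372), whereas without piglet 7 or 29 it was -1.57 and -1.56 and passed the threshold (adjusted p = 0.0372 and 0.0395). Of the 3 control values, 2 were at the ceiling, as was 1 of 2 probes in amoxicillin piglet 25, and the size of the difference is uncertain for that reason too. FABP5 at weaning differed by -1.01 (SE 0.342, 95% interval -1.70 to -0.313, adjusted p = 0.0614, limma), with levels of 10.76 to 12.50 in the 4 amoxicillin piglets and 12.62 to 13.28 in the 3 control piglets. Over the arrays left out, this difference ranged from -1.20 to -0.62 and the adjusted p from 0.0388 to 0.286, never past both thresholds.

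FABP6 had intervals too wide to place its treatment differences. They were -2.01 (95% interval -5.38 to 1.37), 1.08 (-2.29 to 4.46), 1.86 (-2.13 to 5.85), -0.00447 (-3.51 to 3.50) and -1.57 (-5.56 to 2.43) from day 1 to 28 d postweaning, with adjusted p from 0.641 to 1 in limma. FABP3 differences ran from -0.96 at 28 d postweaning (95% interval -2.49 to 0.566) to 0.21 at weaning (-1.32 to 1.74). FABP1 differences lay between -0.50 at weaning (-1.17 to 0.159) and -0.02, and the former was 0.17 without amoxicillin piglet 8. FABP5 at 28 d postweaning differed by -0.62 (-1.31 to 0.0739, adjusted p = 0.36 in limma). Its levels were 12.42 to 12.89 in the 3 control piglets and 11.74 to 12.38 in the 4 amoxicillin piglets.

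**Figure D2:**
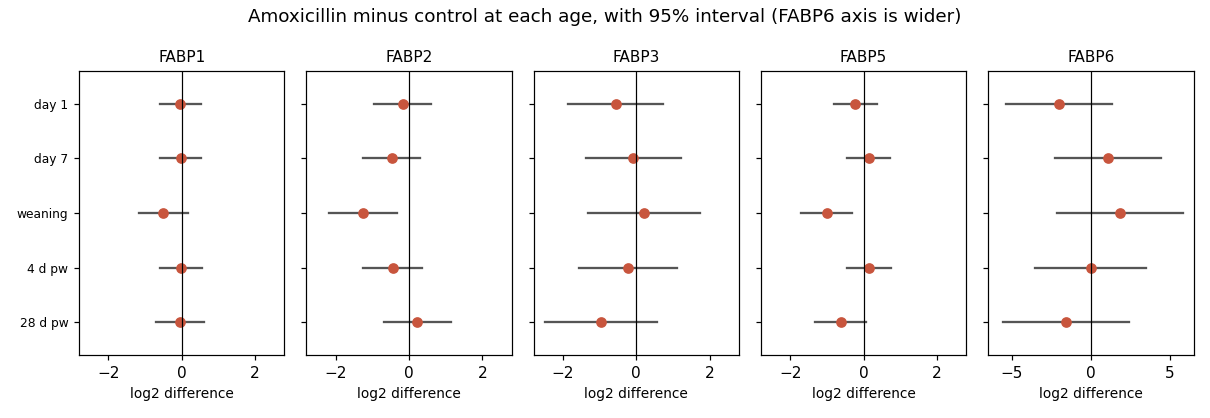
Difference between amoxicillin and control piglets (log2, amoxicillin minus control) at each age with the 95% interval of the limma fit, for the 5 genes tested; the axis of FABP6 is wider than the others. Only the intervals of FABP2 (-2.17 to -0.336) and FABP5 (-1.70 to -0.313) at weaning leave out 0.

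The spread between piglets of one group set FABP6 apart from nearly all other genes. Its residual SD over the 10 groups was 2.73 log2 units, where the median of the 12771 genes was 0.507, and 99.98% of all genes lay below it. The residual SD of FABP3 was 1.04, with 96.5% of genes below, and those of FABP2, FABP5 and FABP1 were 0.61, 0.448 and 0.425. The small SD of FABP1 and FABP2 in most groups goes with their saturated spots.

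Within the control group, where every FABP6 spot was well above background, the brightest piglet exceeded the dimmest 268-fold at day 1 and 5.76-fold at day 7, without a saturated spot in either. The dimmest values, 6.59 and 6.73, lay below the highest dark control spot of any array (6.98), so that both folds depend on the floor of the scale. From weaning on the brightest piglet of every group was saturated, and among the amoxicillin piglets the dimmest of day 1 (6.66) and of 28 d postweaning (7.81) were not well above background in either probe, so no folds are given for those groups. All 10 group SDs of FABP6 (0.951 to 4.03) were larger than the median SD of all genes in the same group (0.239 to 0.658). The groups with the least spread were control day 7 (SD 0.951) and amoxicillin day 1 (1.33), whose levels did not exceed 9.48. The other groups of the first week, control day 1 (3.23) and amoxicillin day 7 (2.68), had a larger SD than amoxicillin weaning (2.1). Low spread was thus not shared by the whole first week. In each first-week group the dimmest level lay below 6.98, and the part of the floor in these SDs was not tested.

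**Figure D3:**
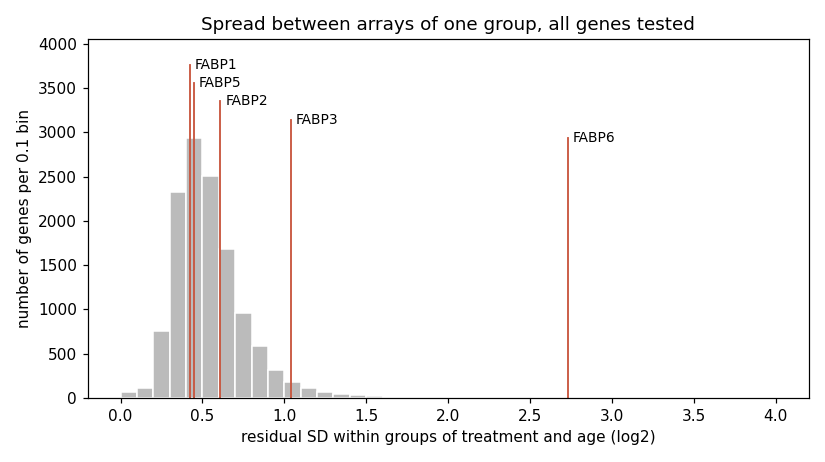
Histogram of the residual SD within groups of treatment and age (log2 units, bins of 0.1) over the 12771 genes tested, with the 5 fatty acid binding proteins marked by lines whose height carries no value. FABP6 at 2.73 lies far to the right of the bulk, FABP3 at 1.04 in its tail, and FABP1, FABP2 and FABP5 within it.

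After the group means were subtracted, the deviations of FABP2, FABP3, FABP5 and FABP6 were compared over the 43 arrays in all 6 pairs, with p-values adjusted over the 6. Piglets with more FABP3 than their group had less FABP2 (Pearson r = -0.547, permutation p = 0.006, adjusted 0.018; Spearman rho = -0.493, permutation p = 0.0058, adjusted 0.035). Without the 2 arrays farthest out in FABP2 or in FABP3 r was -0.489 and -0.389, and it was -0.387 within the control group, -0.704 within the amoxicillin group and negative on 6 of 6 slides (-0.804 to -0.034). Piglets with more FABP6 had less FABP2 by Pearson's r (-0.371, permutation p = 0.0042, adjusted 0.018) while the rank correlation did not pass (rho = -0.288, permutation p = 0.081, adjusted 0.24). Without the 2 farthest arrays in FABP2 or FABP6 r was -0.296 and -0.411, and it was negative on 5 of 6 slides (-0.802 to 0.029). FABP2 was saturated on 22 of these arrays, which hides any difference among them. The other 4 pairs had r between -0.168 and 0.239 and adjusted permutation p of 0.4 or more.

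**Figure D4:**
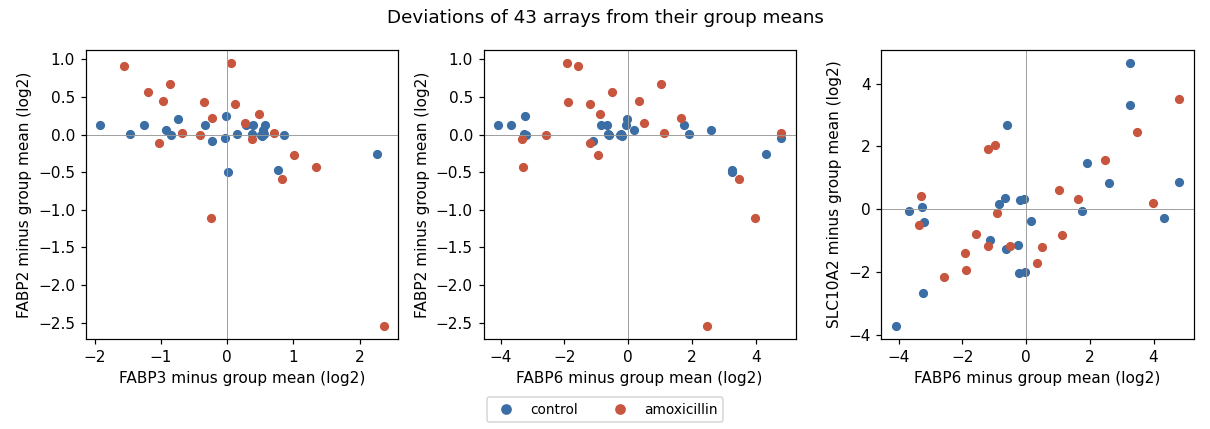
Deviation of each of the 43 arrays from its group mean (log2) for FABP2 against FABP3, FABP2 against FABP6 and SLC10A2 against FABP6, with control piglets in blue and amoxicillin piglets in red. FABP2 deviations fall with those of FABP3 (r = -0.547), with amoxicillin piglet 8 at weaning as the lowest point, and SLC10A2 deviations rise with those of FABP6 (r = 0.566).

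SLC10A2, the sodium-coupled bile acid transporter of the ileal brush border, was the only one of 8 ileal genes with a named spot. Its deviations from the group means went with those of FABP6 (r = 0.566 over 43 arrays, a description without a test), and its levels spanned 4.62 to 13.58. Its 2 highest arrays, control piglet 10 at 4 d (13.58) and control piglet 13 at 28 d postweaning (13.45), were also arrays on which FABP6 was saturated. The 2 arrays highest in FABP6, amoxicillin piglet 8 and control piglet 7 at weaning, had SLC10A2 levels of only 8.81 and 8.55, while amoxicillin piglet 2 at day 1 had 10.71 with an FABP6 level of 6.88. SLC10A2 itself was not called over the ages in the control (adjusted p = 0.371, limma) or the amoxicillin group (0.21). SLC46A1, the proton-coupled folate transporter of the proximal small intestine, deviated the other way from FABP6 (r = -0.549). CYBRD1 (-0.301) and APOA4 (-0.239) of the proximal list did so less. The mean log2 level of the 4 proximal genes on the array lay between 11.80 and 13.23 on the arrays of the first week and between 8.31 and 12.42 later. The 8.31 was 1 array of the amoxicillin group at weaning, whose median was 11.62. Whether the place of sampling along the intestine had a part in the FABP6 values was not tested.

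The markers of enterocytes were bright, with a mean log2 level over 6 genes between 12.68 and 14.65 on all arrays. The lowest array, 12.68, was 1 of the amoxicillin group at weaning, but the median change of the 6 genes from day 7 to weaning in this group was 0.38, with 4 of 6 above 0 and 0 called. Of the 6 enterocyte genes, 3 were called over the ages in the control and 2 in the amoxicillin group, and of 2 goblet cell genes 1 in each, beside 30.5 and 47% of all genes.

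The genes with the pattern most like each fatty acid binding protein were looked up among 1853 named genes by Pearson's r over the 43 arrays, as a description. FABP1 ran most like APOA4 (0.982), APOC3 (0.961) and RBP2 (0.916), the first 2 being apolipoproteins of fat transport and the third a retinol carrier. These values fell to 0.723, 0.559 and 0.447 without amoxicillin piglet 8 at weaning. For FABP2 the nearest were FTHL17 (0.849), APOA4 (0.833) and APOC3 (0.823), and without that piglet 0.447, -0.0195 and 0.126. With group means subtracted FABP1 had APOA4 (0.981), APOC3 (0.97) and RBP2 (0.929), which stayed at 0.931, 0.897 and 0.798 without the piglet, and FABP2 had RBP2 (0.858), APOC3 (0.84) and APOA4 (0.837), then 0.667, 0.605 and 0.592.

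FABP3 ran most like NME1, a nucleoside diphosphate kinase (0.894), and the mitotic genes CCNB1 (0.86) and AURKB (0.843). The same 3 genes led with group means subtracted, at 0.915, 0.906 and 0.895, and leaving out amoxicillin piglet 8 left values of 0.878 or above. FABP5 ran most like CAV1, the main protein of caveolae (0.885), PECAM1, an adhesion molecule of endothelium (0.861), and DCN, the matrix proteoglycan decorin (0.858). With group means subtracted its nearest were TPM2 (0.764), COL1A2 (0.748) and MYL9 (0.732), genes of tropomyosin, collagen and myosin light chain. FABP6 had no likeness as close, with CLU (0.74), BCL2A1 (0.704) and CD48 (0.691) over all arrays and C3H2orf40 (0.685), MMP12 (0.669) and the B cell gene MS4A1 (0.662) with group means subtracted.

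Other genes of fatty acid handling were followed through lists of uptake, storage and control. Of 9 uptake and activation genes tested (10 of 17 on the array), 8 were called over the ages in the control and 6 in the amoxicillin group, shares to be read beside 30.5 and 47% of all genes. Those called in both groups were CD36, the acyl-CoA synthetases ACSL1 and ACSL3, GOT2, CAV1 and SCARB1, a lipoprotein receptor. From day 7 to weaning in the amoxicillin group 1 of the 9 was called lower, CAV1 (-1.68, adjusted p = 0.00906, limma), where 3.62% of all genes were called. The list median was -0.83, beside 0.015 for all genes. CD36, the fatty acid translocase, had -1.47 (adjusted p = 0.00808), just under the fold threshold. Of 11 genes of triglyceride resynthesis and lipid droplets tested (13 of 18 on the array), 3 and 2 were called over the ages, with DGAT2, which adds the last fatty acid to a triglyceride, and the acyltransferase AGPAT3 in both groups. Of 10 transcription factors tested (13 of 19 on the array), 4 were called in each group, with PPARG, a nuclear receptor for fatty acids, its coactivator PPARGC1A and KLF5 in both. HNF4A, the hepatocyte nuclear factor of enterocyte genes, had an adjusted p of 0.782 and 0.0586, and 0 genes of either list were called in a single step.

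The other intracellular lipid binding proteins, relatives of the fatty acid binding proteins that mostly carry retinoids, were called over the ages for 4 of 5 tested in each group (8 of 10 on the array), beside 30.5 and 47% of all genes. From day 7 to weaning in the amoxicillin group 2 of the 5 were called lower, where 3.62% of all genes were called in either direction. Among them was RBP5, a retinol carrier, which fell by 2.33 (adjusted p = 0.0423, limma). The list median was -1.30, beside 0.015 for all genes. In the control group RBP5 fell by 3.16 from day 1 to day 7 (adjusted p = 0.00342). Over the same amoxicillin step SLC46A1 fell by 2.53 (adjusted p = 0.0334) and LIPE, the hormone-sensitive lipase of the adipocyte list, rose by 1.58 (adjusted p = 0.0498), with list medians of -2.11 over 3 proximal and 0.30 over 3 adipocyte genes. MRC1, the macrophage mannose receptor, fell by 1.54 from 4 d to 28 d postweaning in the amoxicillin group (adjusted p = 0.0178). Of the 61 genes tested in the 12 lists, 0 were called in any treatment difference (limma), with 1, 1, 4, 3 and 7 at an unadjusted p under 0.05 from day 1 to 28 d postweaning. Over the ages, 1 and 1 proximal, 1 and 2 adipocyte and 0 and 0 ileal genes were called in the control and amoxicillin group, of 3, 3 and 1 tested, again beside 30.5 and 47% of all genes.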

How the data were processed

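Total RNA from jejunal scrapings of 43 piglets was labelled with cyanine 3 and hybridized to 1 array per piglet. The authors deposited the scanner output, extracted with Feature Extraction 10.7.3.1, whose median intensity per spot and local background are linear and unscaled, with other columns holding flags for saturation, outliers and background. They also deposited log2 values made with normexp (offset 1) and quantile normalization, which the same steps on the median intensity gave within 5e-09. Here these steps were run with R 4.3.3 and limma 3.58.1. Outlier-flagged spots were dropped (45 to 375 on an array, median 97), and the probes of a transcript were averaged. A transcript was tested if it exceeded 1.1 times the highest dark spot without a flag (6.98, giving 7.68 on the log2 scale) on all arrays of a group, the study's filter. One limma fit of 10 groups covered all 43 arrays. The scripts were tested on simulated data. Quantile normalization gives every array the same distribution, and saturated spots were kept.

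The genes, the gene lists and the tests were chosen with earlier results of these data known. Fatty acid binding proteins were all named, with, for each, the 3 genes of highest r over all arrays and after group means were subtracted, and from each list up to 4 genes called. CD36, HNF4A, genes named as called over the ages in both groups and markers named for their detection were chosen after their values were seen. Gene names came from a RefSeq table of porcine genes, matched by transcript accession (2978 of 35884). The files name no genome build, and no positions are given. Piglet numbers recur between groups, and arrays of the same number had correlations of deviations of -0.27 to 0.44 over 10 pairs, 6 of them above 0. These values do not settle whether the numbers pair the samples, and each array was taken as 1 animal. The pairs compare the same number between treatments at the same age and cannot show litters or batches of sows. Piglets of different ages may share a sow, which the labels do not give, and the fits treat them as independent. Control piglets 19 and 19B at day 1 were taken as separate animals. The alternatives tried were a larger offset (50), a common 75th percentile in place of quantiles (on the processed signal or after normexp), the filter dropped or replaced by the scanner's detection flag, outlier spots kept, the authors' table, fits on the arrays of 1 age or group, a slide block (random or fixed), a block on piglet number, calls by p alone, and leaving out each array. For FABP4, probes well above background on at least 35 arrays were added after seeing the data. One gene of the lists is not reported here by name.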

Additional observations from a re-analysis of the deposited data

Results flagged for a closer look

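Of 48 sets of values (a gene in a group of 4 to 6 piglets), 8 held a piglet that stood apart from the rest by Dixon's criterion, of which chance gives about 1 in 20 for normally distributed values. That rate does not hold for FABP1 and FABP2, where most values sit at the ceiling and a small drop stands apart. The count is therefore not set against it. Amoxicillin piglet 8 at weaning stood apart in FABP1 (13.246, others 15.919 to 15.999) and in FABP2 (12.072, others 15.287 to 15.571). Control piglet 10 at 4 d postweaning stood apart in FABP1 (15.648, others 15.978 to 15.999) and in FABP2 (15.385, others all saturated at 15.999). Amoxicillin piglet 24 at day 7, the only one of its group on slide 5, stood apart with a low FABP2 (14.411, others 15.797 to 15.945) and a high FABP6 (12.408, others 6.552 to 7.539). Control piglet 23 at day 7 had a high FABP6 (9.255, others 6.729 to 7.153). Control piglet 4 at day 7 had a FABP1 value of 15.991 beside 15.997 to 15.999, a difference within saturated spots.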

How the results depend on the processing

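Among 990 single values of the 5 genes under alternatives other than leaving out an array, 968 kept their side of the threshold, 18 lost a call, 4 gained one and none of the called values changed sign, while 70 values that were not called did. Of 3440 values with 1 array left out, 3401 kept their side, 26 lost a call, 13 gained one and 54 that were not called changed sign. The number of genes called from day 7 to weaning in the amoxicillin group, 1, was 2 with normexp at a common 75th percentile, 0 under a fixed slide block and 0 to 2 over the arrays left out. The number called over the ages of the control group, 3, was 1 without the filter, 1 with the slide as a random block, 0 as a fixed block and 1 to 3 over the arrays left out, and that of the amoxicillin group, 2, was 3 with outlier spots kept or from the authors' table (FABP2 added), 1 and 0 with the random and fixed slide block and 1 to 3 over the arrays left out. From weaning to 4 d postweaning 1 gene was called in the control group with its arrays alone, and 0 to 1 over the arrays left out in either group, as at weaning between the groups. The causes were not tested. Fixed blocks use the 12475 genes measured on all arrays and compare only ages that share a slide or number.

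With the piglet number as a replicate block, 0 genes were called from day 7 to weaning in the amoxicillin group (FABP5 -1.07, adjusted p = 0.707) and 0 over the ages of the control or amoxicillin group. Whether the numbers pair the samples in any way is not given by the labels. The median of all genes shifted by over 0.1 in 3 cases, 0.101 with normexp at a common 75th percentile (amoxicillin against control at weaning) and 0.167 and 0.124 in the fixed slide and number blocks (28 d against 4 d postweaning, amoxicillin group). The ceiling of the scanner limits FABP1 and FABP2, and background limits FABP4.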
